A study of Homo sapiens with 24 samples.

Results

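Spheroid and adherent cultures of OV90 cells with an inducible shRNA against RELB were compared across all mature miRNAs. OV90 is an established epithelial ovarian cancer cell line. The comparison used 8 of the 24 small RNA libraries of the series, the 4 spheroid and the 4 adherent libraries whose labels name a RELB shRNA knockdown, and no measured value entered their choice. Every library of the series came from OV90 cells given 1 µg/ml doxycycline for 72 h, the drug that switches the shRNA on. Adherent shRELB cells were grown in RPMI medium with tetracycline-free fetal calf serum. Spheroid shRELB cells were grown on ultra-low attachment plastic, in DMEM-F12 with KnockOut serum replacement, insulin-transferrin-selenium, bovine serum albumin, EGF and FGF, a condition that enriches for tumor-initiating cells (TICs). Attachment, medium and growth factors therefore changed together, and their parts cannot be told apart. The other 16 libraries, 4 in each culture with a negative control shRNA (shNeg, called wild type in the labels) and 4 in each culture with an shRNA against RELA, were used to ask whether the culture difference of shRELB cells was shared. The labels do not say that replicates came from separate cultures, so p-values measure only the spread between these libraries, which may be technical. Small RNA libraries do not read the RELB mRNA, so the knockdown was not checked here.

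A miRNA is cut from a hairpin transcript by Drosha in the nucleus and Dicer in the cytoplasm, and 1 or both arms of the hairpin, named 5p and 3p, are loaded into an Argonaute protein. The seed, bases 2 to 8 of the mature miRNA, pairs with target mRNAs and sets most of the target range, so miRNAs with the same seed form families. RELB is a DNA-binding subunit of the non-canonical NF-κB pathway, and RELA is one of the canonical pathway. Some miRNAs leave the usual route. The precursors of miR-320a and miR-484 are made without Drosha, and miR-1224 is a mirtron, whose hairpin is a spliced intron.

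The sequences on which the results below turn are printed 5′ to 3′ from RefSeq (GRCh38.p14), with the seed in capitals. The first are the miRNAs with the highest spheroid to adherent ratios. The 3 miR-320 sequences share their first 18 bases, and miR-1246 and miR-1290 share a run of 12 bases, so reads of close copies may have been divided between them.
miR-320b: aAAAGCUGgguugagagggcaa
miR-320c: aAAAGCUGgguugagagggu
miR-320d: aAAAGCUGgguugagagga
miR-1246: aAUGGAUUuuuggagcagg
miR-1290: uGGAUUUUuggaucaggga
miR-4516: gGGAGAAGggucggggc
miR-760: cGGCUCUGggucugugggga
miR-1224-5p: gUGAGGACucgggaggugg
miR-423-5p: uGAGGGGCagagagcgagacuuu
miR-664b-5p: uGGGCUAAgggagaugauugggua
miR-12136: gAAAAAGUcauggaggcc
The next are miRNAs called lower in spheroids, with miR-93-5p, which was not called, for its seed. The first 4 share the seed AAAGUGC, and miR-106a-5p and miR-17-5p share 22 bases. The pair miR-1260a and miR-1260b shares a seed and a run of 9 bases.
miR-106a-5p: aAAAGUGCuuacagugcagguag
miR-20a-5p: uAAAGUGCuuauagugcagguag
miR-17-5p: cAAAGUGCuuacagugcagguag
miR-93-5p: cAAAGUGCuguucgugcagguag
miR-15a-5p: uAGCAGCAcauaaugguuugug
miR-374b-5p: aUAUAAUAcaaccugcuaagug
miR-625-3p: gACUAUAGaacuuucccccuca
miR-484: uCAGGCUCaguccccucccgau
miR-4521: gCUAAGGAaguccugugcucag
miR-1260a: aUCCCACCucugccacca
miR-1260b: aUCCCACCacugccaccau
The last are miRNAs whose culture difference in shRELB cells departed from that of shNeg or shRELA cells, with miR-452-5p, which the study took further, as it did miR-335-5p.
miR-302d-3p: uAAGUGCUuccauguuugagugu
miR-302b-3p: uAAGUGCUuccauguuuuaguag
miR-135b-5p: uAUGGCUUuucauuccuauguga
miR-32-3p: cAAUUUAGugugugugauauuu
miR-139-3p: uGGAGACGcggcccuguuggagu
miR-1275: gUGGGGGAgaggcuguc
miR-509-3p: uGAUUGGUacgucuguggguag
miR-335-5p: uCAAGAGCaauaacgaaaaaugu
miR-184: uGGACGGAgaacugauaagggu
miR-452-5p: aACUGUUUgcagaggaaacuga

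The adherent shRELB libraries held 4512500 to 6106053 counts and the spheroid shRELB libraries 1861232 to 3580932. Where a miRNA had no count, up to 3 counts could have been missed, worth 0.502 to 0.702 CPM (counts scaled to a library of 1e6 counts, with the TMM correction) in the adherent and 0.860 to 1.58 CPM in the spheroid libraries, and these limits cover counting error only. Between 1099 and 1171 miRNAs had a count in the adherent libraries and between 799 and 1005 in the spheroid libraries. In each of the 8 libraries, 60.3% to 64.5% of the counts fell on its 10 top miRNAs. Of the libraries that enter only as a reference, those of shNeg spheroids were the shallowest (959134 to 1580255 counts), and replicate 1 of that group had a count for 432 miRNAs. Among the spheroid shRELB libraries, replicate 4 stood above the other 3 for several abundant miRNAs, and results that depend on it are marked.

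Spheroid shRELB cells held more of 123 miRNAs and less of 103 than adherent shRELB cells, of 905 miRNAs tested. A miRNA was called at a false discovery rate (FDR) under 0.01 with a change of more than 2-fold either way in edgeR's quasi-likelihood test, fitted on all 24 libraries. The 226 calls were 25% of the miRNAs tested, with 13.6% higher and 11.4% lower. The largest rises were those of miR-4516, miR-1290, miR-320d and miR-320c, and the deepest falls those of miR-483-3p, miR-106a-5p and miR-374b-5p, among miRNAs that averaged 10 CPM or more in the 8 libraries. Over that level, 128 of 327 miRNAs were called (39.1%). The median log2 fold change of all tested miRNAs was −0.0028 on the TMM scale, a scaling that itself sets the typical change near 0.

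Abundance and direction went together in part. Of the 378 miRNAs averaging 1 to 10 CPM, 55 were called higher and 28 lower. Of the 104 averaging 100 to 1000 CPM, 15 were called higher and 32 lower. Of the 69 above 1000 CPM, 12 were called higher and 13 lower. Below 1 CPM, 15 of 200 were called (7.5%). The values of the spheroid and adherent libraries did not overlap for 376 miRNAs (41.5%), and 217 of the 226 called miRNAs were among these. For 51 of the calls, one group had at most 3 counts in every library (the adherent group in 30 and the spheroid group in 21), so their fitted fold changes depend on the prior count of the fit and are not quoted. Leaving out 1 of the 8 shRELB libraries gave 187 to 229 calls.

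Of the miR-320 family, miR-320d, miR-320c and miR-320b were among the miRNAs with the highest ratios. miR-320d had 244, 275, 274 and 305 CPM in the 4 adherent libraries and 10007, 7287, 5987 and 4341 CPM in the 4 spheroid libraries (log2 fold change 4.65, SE 0.22, FDR 1.82e-18). miR-320c had 493, 559.9, 542 and 633 CPM adherent and 15831, 11709.8, 9347 and 7092 CPM in spheroids (log2 fold change 4.30, SE 0.20, FDR 2.39e-18). The groups lay far apart for both, and spheroid replicate 4 was the lowest spheroid library and replicate 1 the highest. miR-320b followed, with 766 ± 78.5 CPM adherent and 13593 ± 4996 CPM in spheroids (SD, n = 4, log2 fold change 4.15, SE 0.21, FDR 1.32e-17). The longer-known member miR-320a-3p, much the most abundant, had 10952, 11394, 9265 and 13209.6 CPM adherent and 49168, 38396, 31895 and 28433 CPM in spheroids. Its groups did not overlap either, but its change was smaller (log2 fold change 1.72, SE 0.20, FDR 1.23e-08). miR-320e was called as well (1.88). Thus the 5 paralogs from miR-320a-3p to miR-320e were all called higher, while the rare arm miR-320a-5p was not called. miR-484, the other miRNA made without Drosha in this set, went the opposite way, with 1239, 1347, 988 and 1054 CPM adherent and 281, 220.5, 202 and 187 CPM in spheroids (log2 fold change −2.38, SE 0.25, FDR 2.75e-09). Its hairpin overlaps an NDE1 exon, at chr16:15643294-15643372 (GRCh38.p14, plus strand).

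miR-1290 and miR-1246, whose sequences overlap in a 12-base run, rose together. miR-1290 had 25.4, 17.8, 20.5 and 20.3 CPM adherent and 1869, 1710.1, 1978 and 1801 CPM in spheroids (log2 fold change 6.45, SE 0.28, FDR 5.12e-19). miR-1246 had 175, 134, 178 and 146 CPM adherent and 2431, 2312, 2569.8 and 2492 CPM in spheroids (log2 fold change 3.95, SE 0.21, FDR 8.33e-17). The spread within each group was small beside the distance between the groups for both. The miR-1290 sequence lies at chr1:18897078-18897096 on the minus strand, in an intron of ALDH4A1, and miR-1246 at chr2:176600980-176601052 on the minus strand, in an intron of LINC01117 on its other strand. miR-4516 was nearly unread in adherent cells, with 0, 0.468, 0 and 0.201 CPM, against 112, 114, 88.8 and 198 CPM in spheroids. Since every adherent library had at most 3 counts of it, only a limit can be given, and it was at least 221-fold higher in spheroids at 3 counts per library (FDR 1.61e-11).

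Of the other rises, those of miR-423-5p, miR-760, miR-1224-5p, miR-664b-5p and miR-12136 were large in ratio. Relative to their level, these miRNAs varied more between spheroid libraries than miR-1290 and miR-1246 did. miR-423-5p had 2087, 2296, 2119 and 2775 CPM adherent and 20278, 17420.2, 12806 and 22388 CPM in spheroids (log2 fold change 2.97, SE 0.20, FDR 7.21e-14). The GC-rich miR-760 had 7.03, 7.25, 3.42 and 7.65 CPM adherent and 107, 89.1, 58.6 and 211 CPM in spheroids (log2 fold change 4.21, SE 0.44, FDR 2.39e-09). Adherent replicate 3 was the lowest for miR-760 and spheroid replicate 4 the highest. The mirtron miR-1224-5p (VWA5B2 intron, chr3:184241405-184241489, plus strand) had 10.5, 12.9, 13.2 and 19.7 CPM adherent and 167, 149.6, 113 and 266 CPM in spheroids (log2 fold change 3.63, SE 0.46, FDR 1.13e-07). Spheroid replicate 4 was again the highest. miR-664b-5p, whose hairpin lies within the small nucleolar RNA SNORA36A in the DKC1 gene, had 3.91 ± 1.05 CPM adherent and 39.5 ± 10.5 CPM in spheroids (SD, n = 4, log2 fold change 3.33, SE 0.40, FDR 3e-08). miR-12136 had 33.5 ± 7.88 CPM adherent and 259 ± 129 CPM in spheroids (SD, n = 4, log2 fold change 2.95, SE 0.28, FDR 2.12e-10).

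**Figure D1:**
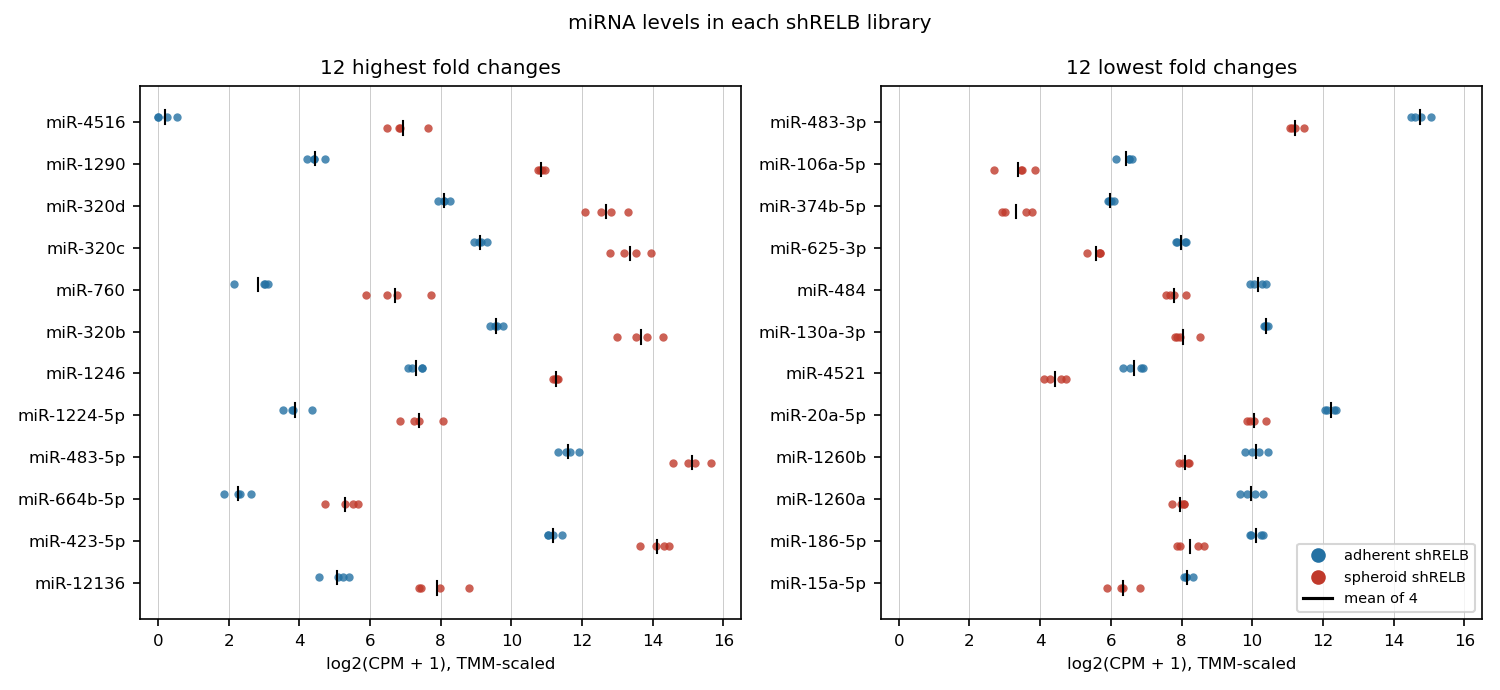
Level of each of the 12 highest and 12 lowest miRNAs by the fixed rule in the 8 libraries, as log2(CPM + 1), with adherent shRELB libraries in blue, spheroid shRELB libraries in red and a tick at the mean of 4. In every row the blue and the red points are separate, and the widest gap is that of miR-4516, which has 0 to 0.468 CPM in adherent and 88.8 to 198 CPM in spheroid libraries.

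The deepest fall, that of miR-483-3p, is described with its other arm below. The next was that of miR-106a-5p, from the paralogs of the miR-17-92 polycistron, and miR-20a-5p of the polycistron itself was also among the 12 lowest. MYC activates the polycistron, whose miRNAs promote proliferation. miR-106a-5p had 90.7, 96.1, 69.4 and 90.02 CPM adherent and 10.02, 10.3, 13.5 and 5.45 CPM in spheroids (log2 fold change −3.16, SE 0.31, FDR 4.53e-10). miR-20a-5p had 5258, 5123, 4281 and 4453 CPM adherent and 981, 1062, 1345 and 925 CPM in spheroids (log2 fold change −2.15, SE 0.29, FDR 4.15e-07). No spheroid library came near an adherent one for either. Of the 6 miRNAs with the seed AAAGUGC that had a RefSeq sequence and averaged at least 10 CPM, 4 were called lower and none higher (median log2 fold change −1.21). miR-93-5p was not called (−0.72, FDR 0.00122), with spheroid replicate 4 at 36230 CPM and the other spheroid libraries at 24820 to 25990 CPM.

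miR-130a-3p, miR-374b-5p, miR-625-3p and miR-4521 fell as well. miR-130a-3p had 1304, 1407, 1330 and 1288 CPM adherent and 222, 249, 365 and 232 CPM in spheroids (log2 fold change −2.32, SE 0.31, FDR 4.15e-07). miR-374b-5p, from an exon of the X-linked long noncoding RNA FTX, had 62.9, 60.1, 67.1 and 59.2 CPM adherent and 11.1, 6.98, 6.51 and 12.6 CPM in spheroids (log2 fold change −2.73, SE 0.37, FDR 4.68e-07). The groups were about as far apart for miR-625-3p, from an intron of FUT8 (−2.41, SE 0.20), and for miR-4521 (−2.28, SE 0.38). miR-15a-5p, which targets the anti-apoptotic BCL2 and lies in an intron of DLEU2, had 286 ± 23.95 CPM adherent and 82.2 ± 22.6 CPM in spheroids (SD, n = 4, log2 fold change −1.80, SE 0.31, FDR 1.92e-05). miR-1260a and miR-1260b moved alike (−2.03 and −2.04), and miR-186-5p also fell (−1.85, FDR 3.14e-06). The calls of the 12 highest and the 12 lowest miRNAs held under each alternative that was run.

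The most abundant miRNAs moved little. Of the 10 with the highest mean over the 8 libraries, only miR-320a-3p and miR-21-5p were called. miR-21-5p, which represses PDCD4 and is NF-κB linked, had 40865, 35756, 48726 and 38220 CPM adherent and 15377, 17089, 21085 and 15867 CPM in spheroids (log2 fold change −1.24, SE 0.22, FDR 3.23e-05). The adherent range lay wholly above the spheroid range. let-7e-5p had 128332, 143968, 121713 and 134893 CPM adherent and 200291, 189779, 166848 and 187620 CPM in spheroids, without overlap but with a change under 2-fold (log2 fold change 0.49, SE 0.13, FDR 0.00292). let-7a-5p gave a like value (log2 fold change 0.55, SE 0.13, FDR 0.000978). miR-125a-5p, miR-92a-3p, miR-93-5p and miR-99b-5p had log2 fold changes from −0.73 to −0.58, and miR-181a-5p had 0.51, none called. miR-146a-5p, an NF-κB target that represses TRAF6 and IRAK1, had 49072, 45881, 48893 and 46483 CPM adherent and 34833, 38946, 60836 and 65808 CPM in spheroids (log2 fold change 0.07, SE 0.17, FDR 0.744). Its 4 spheroid libraries spanned the adherent values, with replicates 1 and 2 below and replicates 3 and 4 above them.

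The study took a pair of miRNAs further, miR-335-5p and miR-452-5p, of which the latter was called. It was rare, with 11.04, 10.3, 15.8 and 11.3 CPM adherent and 4.74, 2.99, 2.33 and 5.45 CPM in spheroids (log2 fold change −1.62, SE 0.46, FDR 0.00482). The groups did not overlap, but the call was lost without adherent replicate 3 (−1.47), spheroid replicate 2 (−1.62) or spheroid replicate 3 (−1.47). miR-224-5p, which shares the host gene GABRE with miR-452, was called lower too, with 668 ± 66.7 CPM adherent and 300.96 ± 119 CPM in spheroids (SD, n = 4, log2 fold change −1.15, SE 0.20, FDR 2.43e-05), and lost the call without spheroid replicate 1. miR-335-5p had 21.8, 13.6, 28.6 and 22.2 CPM adherent and 16.3, 16.6, 12.6 and 13.2 CPM in spheroids, with overlap and no call (log2 fold change −0.56, SE 0.47, FDR 0.354), whereas its partner arm miR-335-3p was called lower (−1.85, FDR 0.00143). miR-155-5p, a further NF-κB target, had 75.4 ± 6.41 CPM adherent and 72.1 ± 6.62 CPM in spheroids (SD, n = 4, log2 fold change −0.06, SE 0.29, FDR 0.872). let-7b-5p was not called (0.39, FDR 0.0736). miR-30e-5p, which the study used as its qPCR reference, was itself lower in spheroids, with 1243, 1153, 1102 and 1075 CPM adherent and 424, 445, 466 and 489.9 CPM in spheroids (log2 fold change −1.32, SE 0.20, FDR 2.31e-06). A level expressed relative to miR-30e-5p in these libraries would be higher in spheroids by the size of that fall. The study's qPCR, however, was compared with shNeg within each culture. There miR-30e-5p was not called in shRELB against shNeg cells (log2 fold change −0.12, FDR 0.763 adherent, and 0.24, FDR 0.383 in spheroids).

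The arms of the miR-483 hairpin moved in opposite directions, the 3p arm falling and the 5p arm rising. miR-483-3p had 28259.7, 34255, 22853 and 25113 CPM adherent and 2145, 2251, 2357 and 2835 CPM in spheroids (log2 fold change −3.53, SE 0.20, FDR 4.59e-16). miR-483-5p had 3013, 3247, 2554 and 3873 CPM adherent and 37658, 32939.9, 24534 and 51722 CPM in spheroids (log2 fold change 3.53, SE 0.35, FDR 7.02e-10). The ratio of the 5p to the 3p arm, taken within each library with 0.5 counts added, was 0.0948 to 0.154 in adherent and 10.4 to 18.2 in spheroid libraries. On the log2 scale it was −3.12 ± 0.30 adherent and 3.89 ± 0.37 in spheroids (SD, n = 4), a shift of 7.02. The more abundant arm was thus the 3p arm in each adherent library and the 5p arm in each spheroid library. Both arms had been named for groups that do not overlap, so their ratio had to separate the groups. The 2-sided exact permutation test (p = 0.0286, the smallest that 4 against 4 libraries allow) therefore adds no support.

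Of 214 hairpins with both arms tested, both arms were called in 20, in the same direction for 12 and in opposite directions for 8, and 1 arm alone was called in 74. Across these 214 hairpins, the 5p and 3p log2 fold changes had a Spearman correlation of 0.15, and of 0.217 across the 67 with both arms at 10 CPM or more (a description across hairpins, whose points share the same 8 libraries). Among those 67, the arm ratio shifted by a median of 0.964 in absolute log2 value, and the more abundant arm changed in 8, those of miR-139, miR-1306, miR-501, miR-500a, miR-769, miR-574, miR-423 and miR-483. Over the 55 of these 67 with both sequences, the 5p minus 3p difference in GC percent and the ratio shift had a Spearman correlation of 0.339, a description of the same kind. miR-423 moved from a log2 5p to 3p ratio of −0.57 ± 0.08 to 2.66 ± 0.22 (SD, n = 4), a shift of 3.23, since miR-423-5p rose and miR-423-3p was not called (−0.27). miR-92b shifted by 3.21, with the 5p arm called higher (1.88) and the 3p arm lower (−1.44). In the other direction, miR-194 shifted by −2.85, miR-185 by −2.83 and let-7d by −2.39, with the 3p arm gaining on the 5p arm.

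**Figure D2:**
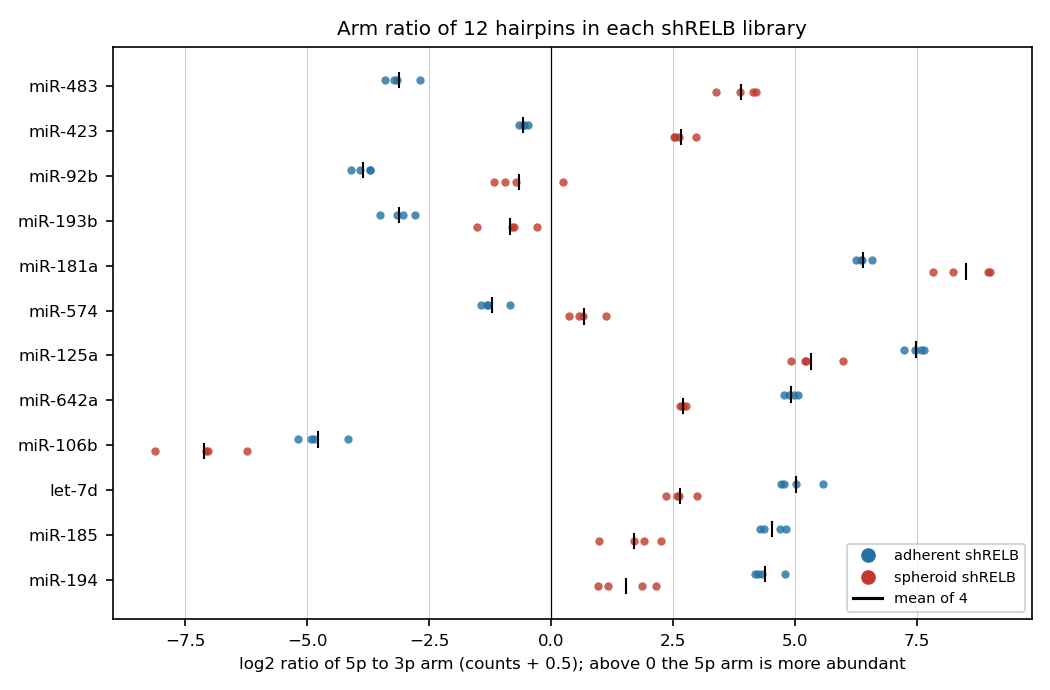
Log2 ratio of the 5p to the 3p arm (0.5 counts added) in each of the 8 libraries, for the 12 hairpins with the largest shifts in either direction among the 67 with both arms at 10 CPM or more, with adherent shRELB in blue and spheroid shRELB in red. miR-483 crosses from −3.12 to 3.89 in the mean, and miR-423 from −0.57 to 2.66.

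Families that share a seed or a transcript were counted next, against 13.6% of all tested miRNAs called higher and 11.4% called lower. Below 1 CPM, 7.5% were called in all. Of the 154 averaging 10 to 100 CPM, 34 were called higher and 22 lower. The values were 15 and 32 of the 104 at 100 to 1000 CPM, and 12 and 13 of the 69 above. Many family members averaged at least 10 CPM, as did 9 of the miR-17-92 cluster and 10 of the miR-30 family. Whether a family departed from miRNAs of like abundance was not tested. In the miR-17-92 cluster, 6 of 12 tested arms were called lower and none higher (median log2 fold change −1.11). miR-17-3p (−1.67), miR-18a-5p (−1.51), miR-19b-3p (−1.22) and miR-17-5p (−1.01) were among them with miR-20a-5p, and miR-92a-3p, from the same transcript, was not called. In the paralog clusters miR-106a-363 and miR-106b-25, 3 of 10 were called lower (median −0.65), among them miR-106b-5p (−1.41) and miR-93-3p (−1.79). In the miR-15/16 family, which restrains the cell cycle, 5 of 17 were called lower and 1 higher (median −0.84). miR-16-5p, the abundant member, had 22899 ± 1903 CPM adherent and 9358 ± 1736 CPM in spheroids (SD, n = 4, log2 fold change −1.29, SE 0.19, FDR 1.52e-06), miR-103a-3p fell by a like amount (−1.07), and miR-503-3p rose (1.13).

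In the family of miR-130, miR-301 and miR-454, 4 of 10 were called lower (median −0.93), with miR-454-3p at 922 ± 147 CPM adherent and 283 ± 80.7 CPM in spheroids (log2 fold change −1.70, SE 0.28, FDR 1.04e-05) and miR-130b-3p at −1.33. In the miR-30 family, 3 of 11 were called lower (median −0.55), both arms of miR-30e among them. In the miR-29 family, which represses collagen genes, 2 of 6 were called lower, and miR-29a-3p had 9565 ± 1094 CPM adherent and 4521 ± 446 CPM in spheroids (log2 fold change −1.08, SE 0.19, FDR 1.92e-05). In the miR-181 family, 3 of 8 were called lower. All 3 were 3p arms, miR-181a-3p (−1.61), miR-181a-2-3p (−1.48) and miR-181b-3p, which had no count in spheroids and was at least 2.26-fold lower at 3 counts per library. miR-23a-3p (−1.20), miR-221-5p (−1.39), miR-99a-5p (−1.62), miR-148a-5p (−1.06) and miR-10a-5p, which lies in a HOX cluster (−1.16), were called lower in families of which few other members were called.

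The let-7 family, which represses RAS, HMGA2 and LIN28, was largely uncalled. None of its 9 tested miRNAs with the seed GAGGUAG was called (median log2 fold change 0.39), although the family's summed level was higher in each spheroid library (314338 to 349040 CPM) than in any adherent library (228897 to 244620 CPM). Of all 15 tested arms, let-7d-3p was called higher, with 135 ± 24.98 CPM adherent and 504 ± 20.4 CPM in spheroids (SD, n = 4, log2 fold change 1.90, SE 0.22, FDR 1.41e-08), and let-7f-1-3p, near the counting limit in spheroids, lower. The miR-200 family and miR-141, which hold cells in the epithelial state by repressing ZEB1 and ZEB2, had 0 of 8 called (median −0.33, range −0.91 to 0.57). The cluster of miR-302 and miR-367, known from pluripotent cells, had 1 of 6 called, miR-302a-5p, with 319.7 ± 70.9 CPM adherent and 1373 ± 103 CPM in spheroids (SD, n = 4, log2 fold change 2.10, SE 0.22, FDR 1.63e-09). The hypoxia miRNA miR-210 had 0 of 2 arms called (median 0.54), and none was called among 5 arms of miR-183, miR-96 and miR-182, 4 of miR-105 and miR-767 and 8 of the miR-378 family. The miR-371 to miR-373 cluster had 2 arms tested, neither called, at 0.930 to 7.25 CPM in all.

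Families with rises were few. The miR-193 and miR-365 group had 3 of 7 called higher and 2 lower. miR-193b-5p had 6.46 ± 1.65 CPM adherent and 45.3 ± 9.58 CPM in spheroids (log2 fold change 2.82, SE 0.32, FDR 9.3e-09) and miR-193a-5p had 10.6 ± 0.886 CPM adherent and 55.7 ± 18.2 CPM in spheroids (log2 fold change 2.40, SE 0.33, FDR 4.84e-07). miR-365a-3p and miR-365b-3p, whose deposited values are the same, were lower (−1.28). Of the miR-99/100 and miR-125 group, 1 of 9 was higher, miR-125a-3p, with 829 ± 89.5 CPM adherent and 2306 ± 377 CPM in spheroids (log2 fold change 1.48, SE 0.17, FDR 1.14e-08). Among the NF-κB-linked miR-155, miR-146 and miR-21, 1 of 7 arms was higher, miR-146b-3p (1.70), and both arms of miR-21 were lower. Single rises were also called for miR-194-3p (1.96) among 9 p53-linked arms, in which miR-34a-3p, near the counting limit, was called lower, for miR-196b-5p (1.00) among 8 HOX-cluster arms, in which miR-196b-3p was also lower and near the limit, and for miR-296-3p (3.70, 0.428 ± 0.328 CPM adherent and 5.77 ± 4.05 CPM in spheroids) among the imprinted loci. miR-500a-5p (−1.03) and miR-500b-5p (−1.37) were the 2 called of 15 in the miR-532 to miR-660 cluster. Counts in these small groups moved by 1 when single libraries were left out, to 1 in the miR-532 to miR-660 cluster (without adherent replicate 1 or 2 or spheroid replicate 4) and in the p53-linked group (without adherent replicate 1, 3 or 4 or spheroid replicate 1 or 4), to 0 for miR-148 and miR-152 (without spheroid replicate 1), to 2 for miR-221 and miR-222 (without spheroid replicate 2 or 3), to 1 for let-7 (without spheroid replicate 4) and to 1 for the miR-200 family (without spheroid replicate 1 or 2).

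Hairpins within 10000 bp of each other on 1 strand (GRCh38.p14) formed 61 clusters with tested miRNAs. Calls were lower only in 24 of them, higher only in 10, in both directions in 3, and absent in 24. In 20 of them a single miRNA was called, which fixes the direction, and of the 17 with at least 2 calls, 12 had all lower, 2 all higher and 3 both. The miR-17-92 cluster (chr13:91350618-91351382, plus strand, the span of its tested mature sequences) had 6 of 11 called, all lower. The miR-15a/16-1 cluster in DLEU2 (chr13:50048985-50049188, minus strand) had 2 of 4 called, both lower. A mature miRNA with more than 1 locus was counted at each, so some clusters repeat the same measurement. miR-16-5p entered this cluster and that of miR-15b on chr3, and miR-19b-3p entered clusters on chr13 and chrX. miR-3179 and miR-3180-5p entered more than 1 cluster on chr16. The locus of such reads is not known.

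**Figure D3:**
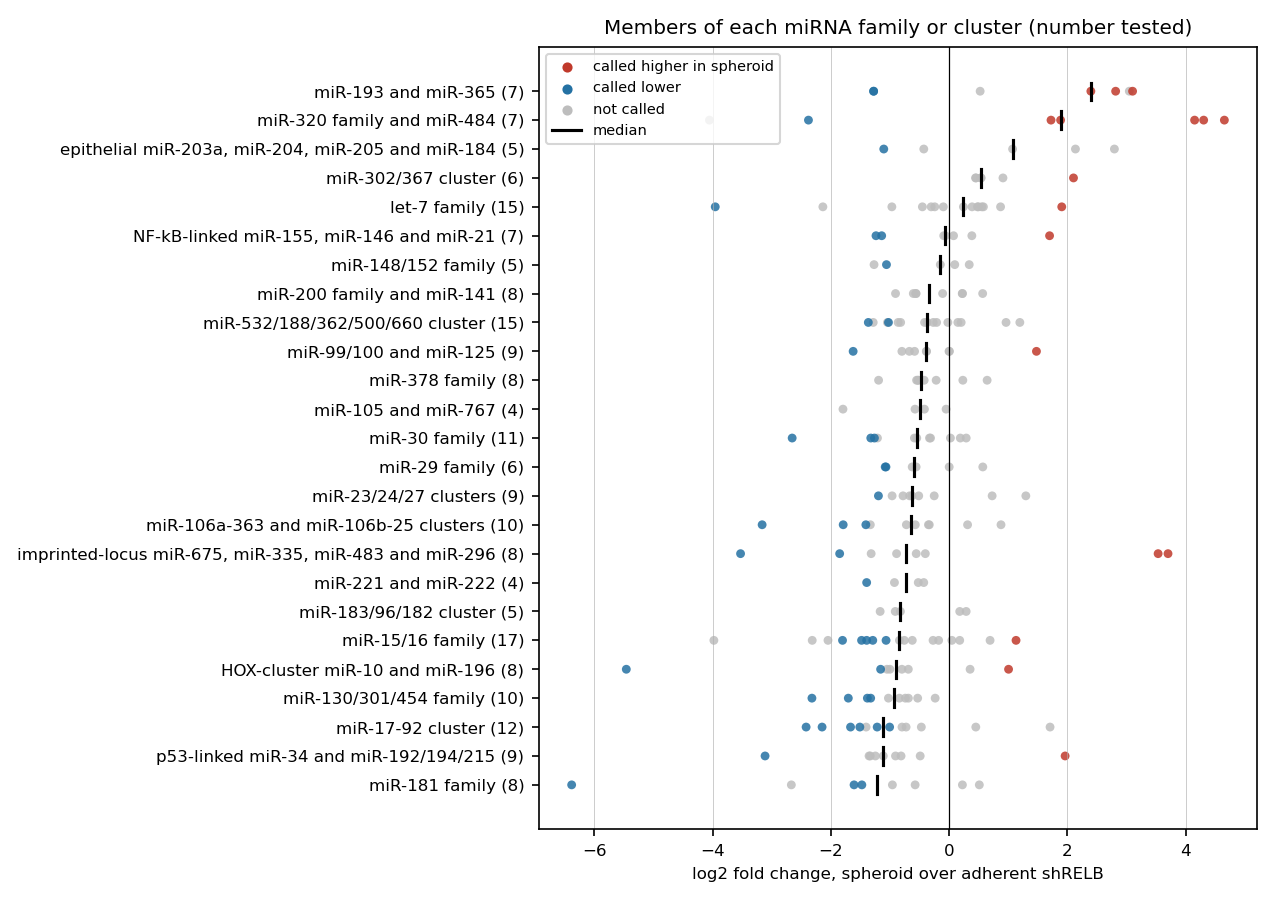
Log2 fold change of spheroid against adherent shRELB cells for each tested member of the lists with at least 4 tested members, with a bar at each list's median. The members of the miR-17-92 cluster and of the family of miR-130, miR-301 and miR-454 lie at or below 0 for the most part (medians −1.11 and −0.93), and the miR-320 members well above 0 apart from miR-484 and 1 uncalled arm.

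GC content of the mature sequence went with the direction of change. Of the 905 tested miRNAs, 795 had a RefSeq sequence. Of the 98 with less than 40% GC, 3 were called higher and 22 lower, and of the 189 with 40% to under 50%, 7 higher and 33 lower. Of the 230 with 60% GC or more, 55 were called higher and 9 lower. The share called was 21.2% to 27.8% in the 4 classes, so they differed in direction rather than in the number of calls. The Spearman correlation of GC percent and log2 fold change was 0.42 over 795 miRNAs and 0.40 over the 294 with a mean of at least 10 CPM. It is a description across miRNAs that share the same 8 libraries, and length did not follow the change (−0.021). Shares of the counts were taken over the 795 miRNAs with a RefSeq sequence only. The miRNAs left out include both arms of miR-483 and miR-320a-3p, so the share of all counts was not tested. Within that limit, the share of the counts in these classes gave no difference that passed a test. miRNAs with less than 40% GC held 16.4% ± 1.58 of the counts in adherent and 16.2% ± 1.56 in spheroid libraries (2-sided exact permutation test, p = 0.657, n = 4), and those with 60% GC or more 6.59% ± 0.53 and 6.21% ± 1.05 (p = 0.486, exact permutation test). How GC content, library preparation or depth entered the fold changes was not tested.

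Markers of other cell types were low or did not rise together. miRNAs of leukocytes summed to 8.90 to 14.6 CPM adherent and 10.3 to 27.9 CPM in spheroids, with 0 of 3 tested called. Of the erythroid list, miR-486-5p rose (2.22, FDR 2.46e-09, 40.3 ± 3.64 CPM adherent and 187 ± 35.1 CPM in spheroids), while the list summed to 37.0 to 46.1 CPM adherent and 136 to 215.1 CPM in spheroids and miR-451a, the defining one, was at 0 in all spheroid libraries. miR-126-3p, of endothelium, had 2309 ± 146 CPM adherent and 876 ± 316 CPM in spheroids (SD, n = 4, log2 fold change −1.40, SE 0.21, FDR 3.1e-06), and miR-143-3p, of smooth muscle and fibroblasts, was lower too (−1.19), as was miR-143-5p, near the counting limit in spheroids. Muscle miRNAs summed to at most 7.44 CPM. The neuronal list summed to 113 to 127 CPM adherent and 38.5 to 89.5 CPM in spheroids (0 of 3 called). miR-122-5p, the liver miRNA, was abundant in both cultures, at 18226 to 21836 CPM adherent and 13733 to 21098 CPM in spheroids, and was not called. The epithelial list, miR-200 family and miR-205, summed to 7810.3 to 9648 CPM adherent and 7922 to 16346 CPM in spheroids (0 of 9 called). All libraries came from the OV90 line. In such bulk cultures, fewer cells in a given state and less RNA per cell cannot be told apart.

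The culture difference of shRELB cells was next compared with that of shNeg and shRELA cells, which were cultured in the same 2 ways and share no library with it. In shNeg cells 382 of 905 miRNAs were called (42.2%) and in shRELA cells 295 (32.6%). Of the 226 shRELB calls, 185 were also called in the same direction in shNeg cells, 81.9% of the shRELB and 48.4% of the shNeg calls, and 163 in shRELA cells, 72.1% of the shRELB and 55.3% of the shRELA calls. The direction was opposite for 0 and 2 miRNAs. In all 3 backgrounds 147 were called in the same direction, and 23 were called in shRELB cells alone, a count that does not show a difference by itself. All 12 highest and all 12 lowest miRNAs were called in the same direction in both other backgrounds. Over the 327 miRNAs with at least 10 CPM, the Spearman correlation of the culture change in shRELB cells was 0.84 with shNeg and 0.88 with shRELA, as a description across miRNAs.

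The difference of the culture changes was tested in the same fit. It was called between shRELB and shNeg for 77 miRNAs (8.51%), 42 with a higher value in shRELB and 35 with a lower one. The split depended on the scaling, since 54.5% of the calls had the higher value with TMM, 41.9% with median-ratio size factors and 19.1% with library totals, and the median difference over all miRNAs was 0.15 (log2). For 53 of the 77, the shRELB change had the same sign as the shNeg change and was nearer 0, for 2 it was further from 0, and for 22 the signs were opposite. Only 36 of the 77 were called in shRELB cells themselves. Over the 294 miRNAs with sequence and at least 10 CPM, the Spearman correlation of GC percent with the culture change was 0.40 in shRELB, 0.60 in shNeg and 0.49 in shRELA cells, and −0.636 with the difference of shRELB from shNeg, as a description across miRNAs that share these libraries. The 4 named miRNAs furthest above shNeg had 27.3% to 39.1% GC, and the 4 furthest below 65.2% to 70.6%. The part of GC content in the difference was not tested.

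The largest differences from shNeg in the upward direction were those of miRNAs that fell in shNeg spheroids but not, or less, in shRELB spheroids. miR-302d-3p had 17.4, 21.8, 22.3 and 19.9 CPM in adherent and 19.5, 22.9, 50.7 and 24.95 CPM in spheroid shRELB libraries (log2 change 0.53), against 2.98 to 5.6 CPM and 0 to 0.702 CPM with shNeg. The difference was called (FDR 0.000408), and since no spheroid shNeg library had more than 3 counts, it is given as at least 1.54 at that limit. miR-302b-3p, from the same cluster, had 27.3, 34.4, 41.3 and 30.01 CPM adherent and 63.3, 58.9, 88.4 and 40.2 CPM in spheroid shRELB libraries (0.91, overlapping, though called in a fit of the 8 libraries alone with their own filter, 1.02), and its difference from shNeg was 2.64 (FDR 0.00283). Of the 6 tested arms of the cluster, 3 had a called difference. miR-135b-5p was near level in shRELB cells (−0.22) and had at most 3 counts in spheroid shNeg libraries, so that its difference was at least 1.64 (FDR 0.00215). miR-32-3p had a difference of 2.64 (FDR 0.00576), with 15.4, 16.6, 16.6 and 13.9 CPM adherent and 3.16, 6.65, 6.05 and 9.46 CPM in shRELB spheroids. Its fall in shRELB cells missed the FDR threshold (log2 change −1.26, FDR 0.0115) but was called with DESeq2 (−1.27), with the likelihood ratio test (−1.26), without a filter (−1.43), with a mean of at least 10 CPM required (−1.16) and in the 8 libraries alone (−1.10). The call of its difference from shNeg was lost without replicate 1, 2 or 4 of adherent shRELB, replicate 4 of spheroid shRELB, replicate 1 of adherent shNeg or replicate 2 of spheroid shNeg (2.50 to 2.67).

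Below shNeg stood miRNAs that rose in spheroids of both backgrounds, by a smaller ratio to adherent cells with shRELB. miR-139-3p had a culture change of 2.79 in shRELB and 6.43 in shNeg cells (difference −3.64, SE 0.74, FDR 0.000739). miR-1275 had 14.9, 20.1, 12.2 and 17.1 CPM adherent and 61.7, 55.9, 62.8 and 141 CPM in shRELB spheroids, and 155 to 857 CPM in shNeg spheroids (difference −2.96, FDR 0.000156). The mirtron miR-1224-5p (−2.93, FDR 0.00212) and miR-760 (−2.59, FDR 0.0023) gave like differences. Spheroid shNeg replicate 1 was the highest library for these, and without it the differences were −2.93 for miR-139-3p, −2.13 for miR-1275, −1.84 for miR-1224-5p and −1.67 for miR-760, still called. In adherent cells, shRELB exceeded shNeg by a call for miR-1224-5p (log2 fold change 2.80, FDR 0.00015) and miR-139-3p (2.31, FDR 0.00784). In spheroids, neither was called, miR-1224-5p with means of 174 CPM for shRELB and 191 CPM for shNeg (−0.13, FDR 0.855) and miR-139-3p at −1.33 (FDR 0.02). For miR-760 and miR-1275 only the spheroid level was called, lower with shRELB (−1.76 and −2.21). Among the abundant miRNAs, let-7a-5p (0.55 in shRELB, −0.59 in shNeg, FDR of the difference 5.08e-05) and miR-146a-5p (0.07 and −1.20, FDR 0.000315) differed. Other choices also ended single calls, limma on log2(CPM + 1) that of miR-1224-5p (−2.01), a fit of the compared groups alone that of miR-760 (−2.56), and library totals without TMM those of miR-302b-3p (2.26) and miR-32-3p (2.25). The shRELB and shNeg libraries were also thinned to the depth of the shallowest of them, with the shRELA libraries left whole. In that fit, miR-1275 kept its call and the other 7 of the 8 with the largest differences missed the FDR threshold (FDR 0.0107 to 0.0439). Their differences kept their direction and stayed above 2-fold, with fitted values that rest on a few counts in 1 shNeg group, such as −3.46 for miR-139-3p, −2.67 for miR-1224-5p, −2.78 for miR-760, 2.72 for miR-32-3p and 2.10 for miR-302b-3p.

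Against shRELA, the difference was called for 13 miRNAs (1.44%), 2 higher and 11 lower in shRELB, and for 119 at an unadjusted p below 0.05. miR-335-5p differed most upward. It fell from 62.7 to 234 CPM to 3.58 to 13.7 CPM in shRELA cells (−4.11) and was not called in shRELB cells (difference 3.55, SE 0.69, FDR 0.00355). miR-10b-5p had 1206, 1061, 1376 and 1217 CPM adherent and 492, 634, 933 and 952 CPM in spheroid shRELB libraries (−0.69), a smaller fall than in shRELA (−2.14) or shNeg (−2.56) cells, with a called difference from both (FDR 0.00355 and 4.27e-05). miR-509-3p, an X-linked miRNA, rose in shRELB cells from 7.36, 9.82, 6.68 and 8.66 CPM to 53.8, 56.2, 39.99 and 39.9 CPM (2.55). It rose more in shRELA (6.01) and shNeg cells (4.77), by called differences of −3.46 (FDR 4.67e-09) and −2.22 (FDR 1.27e-05). miR-184 fell in shRELB cells from 750.4, 714, 707 and 873 CPM to 333, 391, 299 and 391 CPM (−1.11) and was at 48.2 to 139 CPM in every shNeg and shRELA library. Its difference was called against shRELA (−1.37) and shNeg (−1.05), but its fall in shRELB cells itself missed the fold threshold in a fit of the 8 libraries alone (−0.97), after thinning (−0.95) and with a mean of at least 10 CPM required (−0.997). miR-4683 (−2.38) and miR-187-3p (−1.49), not called in shRELB cells themselves, were the other named ones. These calls were less stable than those of the culture comparison itself. The number called was 2 without spheroid shRELB replicate 3, 7 without adherent shRELA replicate 2 or adherent shRELB replicate 1 or 2, 8 without spheroid shRELA replicate 1 or 4, and 33 without spheroid shNeg replicate 1. miR-10b-5p lost its call without adherent shRELA replicate 1, adherent shRELB replicate 2 or spheroid shRELB replicate 3 (1.30 to 1.39). miR-184 lost its call without adherent shRELA replicate 2, adherent shRELB replicate 4, spheroid shRELA replicate 4 or spheroid shRELB replicate 3 (−1.35 to −1.29). miR-187-3p lost it without adherent shRELB replicate 1 or 2, spheroid shRELA replicate 1 or 2, or spheroid shRELB replicate 2 or 3 (−1.54 to −1.35). miR-4683 lost it without adherent shRELA replicate 2 or 3, adherent shRELB replicate 1, 2 or 4, spheroid shRELA replicate 1, or spheroid shRELB replicate 1, 2 or 3 (−2.38 to −1.92). limma on log2(CPM + 1) did not call miR-335-5p (3.40), miR-10b-5p (1.33) or miR-4683 (−2.03).

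**Figure D4:**
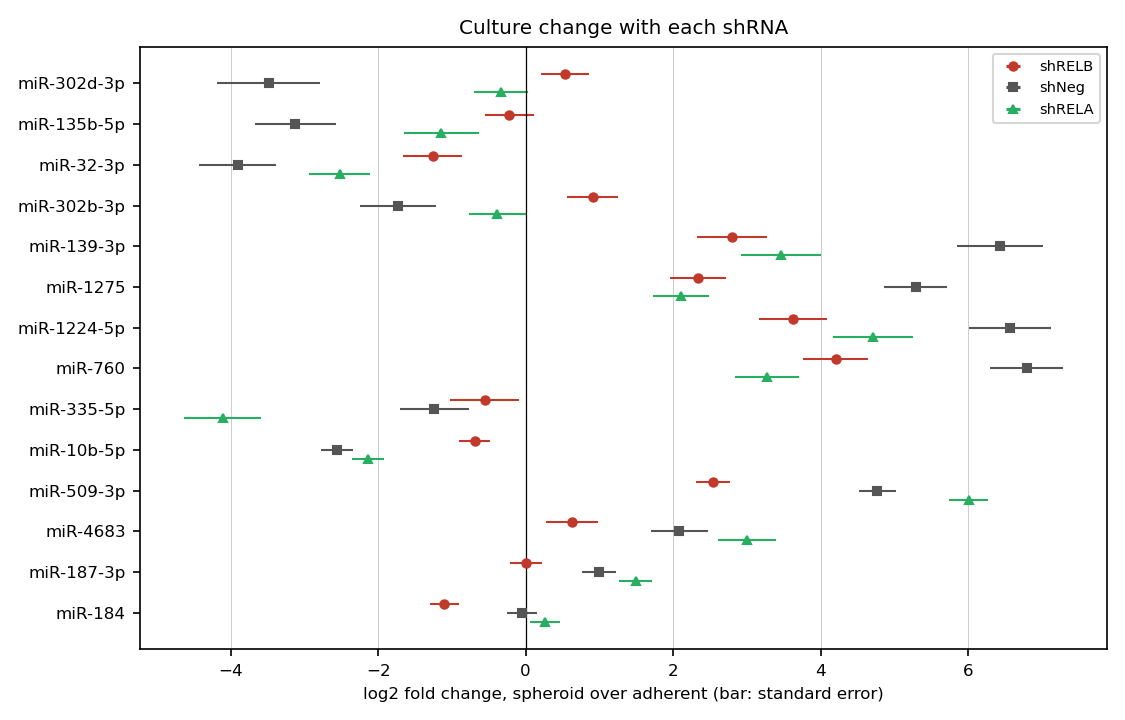
Log2 fold change of spheroid against adherent culture with its SE in shRELB (circle), shNeg (square) and shRELA cells (triangle) for the 14 miRNAs with the largest called differences by the fixed rule. miR-302b-3p lies above 0 in shRELB cells (0.91) and below 0 in shNeg cells (−1.73), the shNeg points of miR-302d-3p and miR-135b-5p rest on at most 3 counts per spheroid library, and miR-509-3p is raised in all 3 backgrounds, by 2.55 with shRELB, 4.77 with shNeg and 6.01 with shRELA.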

How the data were processed

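The main comparison used 8 OV90 small RNA libraries (spheroid and adherent shRELB), and the fit all 24, in 6 groups of 4. Groups were taken from the labels. According to the methods, the authors made the libraries with the QIAseq miRNA kit, which adds a unique molecular index, sequenced them on a NextSeq, removed adapters by Cutadapt, and used miRDeep2 to match reads with miRBase. The table deposited by the authors holds an estimated count per mature miRNA, titled as CPM but not scaled, since library totals differ. Whether reads were collapsed by index is not given in the sources used here. Fractional values, which made up 3.04% of those above 0 and fell on 84 miRNAs, were rounded to whole counts.

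The 905 of 2656 miRNAs that reached 1 CPM in 4 or more libraries were scaled by TMM and tested with edgeR 4.0.16 (R 4.3.3, quasi-likelihood test, group as the only term, common dispersion 0.0888), with Benjamini-Hochberg adjustment over the 905. An SE was computed as the absolute log2 fold change over the square root of F. Named miRNAs were, among called miRNAs without overlap and with a mean of at least 10 CPM, the 12 highest and 12 lowest, then the 10 most abundant, the 4 highest and 4 lowest called differences from each background with at least 10 CPM, those the study follows, and members of the family and marker lists. The members and lists were chosen with earlier results of these data known. Alternatives were DESeq2 1.42.0, limma 3.58.1 on log2(CPM + 1), edgeR's likelihood ratio test, other filters, scalings, thresholds and sample sets, thinning, a replicate block and each library left out. The scripts were tested on simulated data. Replicate numbers are shared across groups in the labels, but same-numbered libraries did not deviate together (correlations −0.247, −0.038, 0.344 and 0.116), so the numbers were not taken as pairs. Sequences and positions are those of RefSeq GRCh38.p14, matched by name for 795 of 905 miRNAs.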

Additional observations from a re-analysis of the deposited data

Results flagged for a closer look

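Of 108 sets of 4 libraries examined, 7 held a library far from the other 3, where chance alone gives about 1 in 20. Spheroid shRELB replicate 4 was the highest for miR-125a-5p (118500 CPM against 82700 to 86260), miR-93-5p (36230 against 24820 to 25990), miR-99b-5p (38210 against 19300 to 22190) and miR-1275 (141.4 against 55.9 to 62.8). Adherent shRELB replicate 3 was the lowest for miR-760 (3.43 CPM against 7.03 to 7.65), and spheroid shRELB replicate 2 the lowest for miR-625-3p (38.9 against 49.6 to 51.1). Adherent shRELB replicate 1 had the most miRNAs with a count, 1171.

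The culture change differed between shRELB and shNeg cells for 77 miRNAs in edgeR's quasi-likelihood test. Among the named miRNAs, the log2 difference (shRELB minus shNeg) was 4.02 for miR-302d-3p and 2.90 for miR-135b-5p, both fitted against at most 3 counts per spheroid shNeg library, 2.64 for miR-32-3p, 2.64 for miR-302b-3p, 1.87 for miR-10b-5p, 1.57 for miR-130a-3p, 1.28 for miR-146a-5p and 1.14 for let-7a-5p. It was −3.64 for miR-139-3p, −2.96 for miR-1275, −2.93 for miR-1224-5p, −2.59 for miR-760, −2.22 for miR-509-3p, −1.47 for miR-12136, −1.32 for let-7b-5p, −1.08 for miR-423-5p and −1.05 for miR-184. Between shRELB and shRELA cells, 13 miRNAs differed. The difference was 3.55 for miR-335-5p, 1.45 for miR-10b-5p, −3.46 for miR-509-3p, −2.38 for miR-4683, −1.49 for miR-187-3p and −1.37 for miR-184. The spheroid libraries of the 3 backgrounds also differed in depth, with medians of 2376568.5 counts for shRELB, 1155269 for shNeg and 2279091.5 for shRELA, and the values after thinning to equal depth stand with the named miRNAs and the processing alternatives.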

How the results depend on the processing

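The number of miRNAs called between spheroid and adherent shRELB cells was 132 of 337 tested with a mean of at least 10 CPM required, and 184 to 319 under the other alternatives. Leaving out single libraries gave 187 to 278, the highest without spheroid shNeg replicate 1. Of the calls, 54.4% were higher in spheroids with TMM, 53.6% with median-ratio size factors, 55.8% with library totals, 63.6% in a fit of the 8 libraries alone and 45.3% without a filter. The difference from shNeg gave 129 calls at an FDR below 0.05, 53 after thinning and 57 to 100 with single libraries left out. The difference from shRELA gave 23 calls with DESeq2, 6 with limma, 31 with the likelihood ratio test, 31 in the groups compared, 33 at an FDR below 0.05 and 2 to 33 with single libraries left out. With the replicate block, the counts were 216, 72 and 11. The block changed no call checked for the 50 miRNAs named by the fixed rules. Calls of other miRNAs in the text were not checked singly under the block. The correlation with GC percent was 0.42 with library totals. Fold changes near 0 turned sign, that of miR-187-3p to −0.18 without a filter, −0.014 with median-ratio size factors, −0.011 with DESeq2, −0.0092 with limma and −0.033 in the 8 libraries over the same miRNAs, that of miR-146a-5p to −0.11 without a filter and that of miR-155-5p to 0.048 with 10 CPM required and 0.073 in the 8 libraries. With single libraries left out, they ran from −0.17 to 0.086 for miR-187-3p, −0.16 to 0.22 for miR-146a-5p and −0.51 to 0.00092 for miR-135b-5p. The causes were not tested. Depth limits what could be seen of miRNAs near 1.58 CPM and below in spheroids.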

Other observations

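Besides miR-483 and miR-92b, 6 hairpins had arms called in opposite directions, and they are named here after their values were seen. The 5p arm was higher and the 3p arm lower in spheroids for miR-197 (log2 fold changes 2.67 and −1.21), and likewise for the mirtron miR-877 (1.96 and −2.75). The 5p arm was lower and the 3p arm higher for miR-185 (−1.51 and 1.29) and for miR-642a (−1.14 and 1.09). For miR-196b and miR-365b, one of the arms had at most 3 counts in every library of a group, so its fitted value is not given. Both arms rose for miR-6511a (3.08 and 1.21), miR-6511b (2.86 and 1.37) and miR-139 (1.11 and 2.79), and for miR-31 (−1.23 and −1.57), miR-455 (−1.54 and −1.02), miR-551b (−1.52 and −1.36) and miR-625 (−1.04 and −2.41) both fell.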
